A study of Zea mays with 4 samples.

Results

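Early nodulin genes of maize (Zea mays) roots were followed on spotted oligonucleotide arrays through the probe MZ00006197, described as similar to the rice early nodulin gene OsENOD93a, and every other maize probe described as ENOD93 or as an early nodulin. MZ00006197 was chosen because it passed the limma test for a higher signal with nitrate on these same arrays. Its values are therefore given as a description, and its test results given below are no independent evidence. The others were chosen by their description alone, from probes with a single spot on a single array version. This gave 24 of 55547 maize probes, with 11 on array version A and 13 on version B.

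Each array compared nitrate-treated half-roots with the control half-roots of a split-root culture. Both sides belonged to plants that had 0.5 mM nitrate for 6 days and then no nitrogen for 2 days. The nitrate side then received 1 mM nitrate for 1 h, while the nitrogen-free control side had 1 mM calcium chloride, which compensated for calcium. RNA came from the 15 cm of root behind the tip, sampled at day 10. Nitrate RNA carried Cy3 and control RNA carried Cy5 on all 4 arrays, 2 of each version, so a dye effect of a single probe stays in its ratio. The labels name no maize line and do not say if the 2 control RNAs are from different plants, so the spread between arrays may in part be technical. In whole root segments, fewer cells of a type and less RNA per cell cannot be told apart.

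Early nodulins were first described as plant genes switched on early in the formation of nitrogen-fixing nodules on legume roots, and cereals, which form no such nodules, carry relatives of them. ENOD93 genes encode small membrane proteins. In Arabidopsis the ENOD93 protein is mitochondrial and associates with cytochrome c oxidase, the last complex of the respiratory chain, and in rice an OsENOD93 gene is known from work on growth under limited nitrogen. Early nodulin 75 is a proline-rich cell wall protein of legume nodules, and early nodulin 8 is an esterase of Medicago nodules.

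The probes fell into 5 groups by description. The OsENOD93a-like group held 9 probes, whose best protein hits were 3 rice proteins (BAA83567, BAA83566 and BAA83559). Another 4 probes, all on version B, were described only as early nodulin, with the rice hit BAA33815. A further 2 were described as related to an early nodulin gene, 8 as early nodulin 75 precursor-like, and 1 as an early nodulin 8 precursor. Members share sources. MZ00013593, MZ00041098, MZ00013594, MZ00013596 and MZ00013597 were designed on the consecutively numbered consensus sequences TC233750, TC233751, TC233752, TC233753 and TC233754. MZ00015674 and MZ00015675 came from TC237377 and TC237378, and the files list a full-length match of both to the same genomic contig. The probes are therefore not independent genes, and how far each detects the transcripts of another was not tested.

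All log2 ratios are nitrate over control, after background modelling (normexp, offset 50) and loess within each array. Loess removes the dye difference usual at a spot's brightness, so a ratio near 0 can have the opposite sign to the difference between its intensities. A channel was called above background where it exceeded the 95th percentile of the blank and buffer spots of its array, an intensity of 22 to 242 for nitrate and 21 to 120 for control. By this measure 23 of the 24 probes were tested, and the median log2 ratio of all tested probes was 0.0038 for version A and -0.0037 for version B.

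MZ00006197 had intensities of 9222 and 15252 on the nitrate side, against 1722 and 3543 on the control side, on replicates 1 and 2. The nitrate signal was the higher on both arrays, and the lower nitrate value lay above the higher control value. Its log2 ratios were 2.59 and 1.94, a mean of 2.27 ± 0.46 (SD, n = 2), or 4.81-fold. It stood 12th from the highest of 24748 tested probes, but at rank 25 with median centring, 56 with plain intensities and 145 with the deposited ratios. The median log2 ratio of its print block, the patch of the slide it was spotted in, was 0.0024 on replicate 1 and -0.0605 on replicate 2.

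The early nodulin probe with the next highest ratio was on the other array version. MZ00013596, with the protein hit BAA83566, had 5132 on the nitrate side of both arrays, against 982 and 1105 on the control side. The nitrate values lay above both control values. Its log2 ratios were 2.37 and 2.02, with a mean of 2.19 ± 0.25 (SD, n = 2), or 4.57-fold, at rank 20 of 28374 tested probes, or 65 with plain intensities and 169 with the deposited ratios. It did not pass the limma test over all probes of version A (limma adjusted p = 0.0993).

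**Figure D1:**
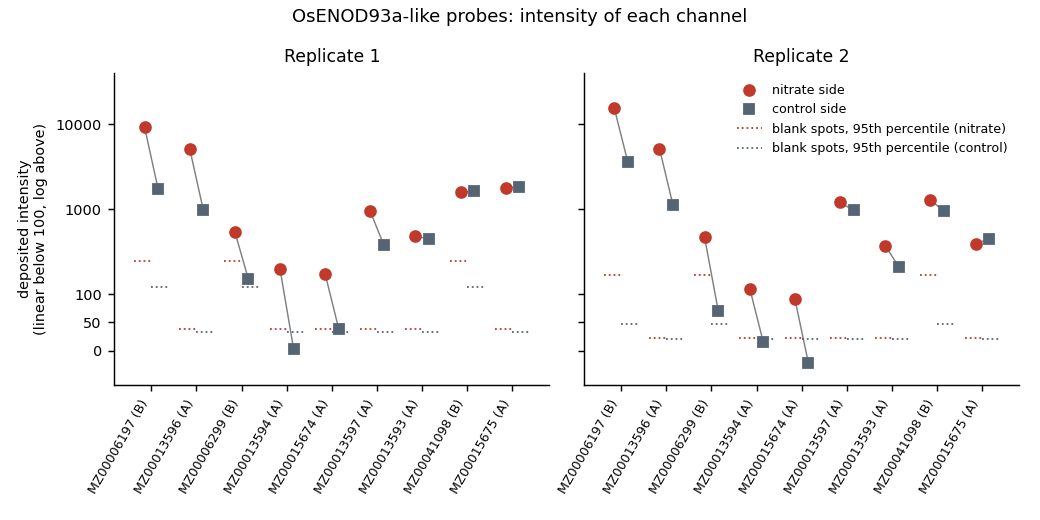
Deposited intensity of the 9 OsENOD93a-like probes, nitrate side (circles) left of control side (squares), on replicate 1 and replicate 2; the axis is linear below 100 and logarithmic above, letters in brackets give the array version, and dotted lines mark the 95th percentile of blank spots. MZ00006197 and MZ00013596 stand well above the blank spots in both channels with a wide gap between them, while the control channel of MZ00013594 and MZ00015674 lies at or near the blank spots.

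A further 3 OsENOD93a-like probes were dim, with a nitrate channel above background and a control channel near it. MZ00006299, with the same protein hit as MZ00006197, had 541 and 463 with nitrate, against 150 and 71 in the control. Its log2 ratios of 0.78 and 0.98 gave a mean of 0.88 ± 0.14 (SD, n = 2; limma adjusted p = 0.201). MZ00013594, again with this hit, had 198 and 116 with nitrate, against 4 and 15 in the control, where neither array was above background. A bound from the dimmest probes above background put the nitrate side at least 1.5-fold higher as a mean over both arrays, not on each. This bound was taken per channel after loess and Aquantile scaling, and is open to dye bias. The log2 ratios of MZ00013594 were 1.10 and 0.45 (limma adjusted p = 0.358). MZ00015674, the only probe with the hit BAA83559, had 173 and 91 with nitrate, against 39 and -22 in the control, which was above background on 1 of 2 arrays. Its log2 ratios were 0.61 and 0.85 (limma adjusted p = 0.341). In these 3 probes the nitrate signal was above the control signal on both arrays. For MZ00013594 on both arrays, and MZ00015674 on replicate 2, only the nitrate channel was above background, so this order was fixed by the filter. The size of these ratios differed with the processing. The deposited ratios, which have another background treatment and normalization, were 2.05 and 5.46 for MZ00006299, 28.3 and 4.59 for MZ00013594, and 3.25 and 1.37 for MZ00015674.

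The other 4 OsENOD93a-like probes had lower ratios although several share a protein hit with those above. MZ00013597 had 940 and 1195 with nitrate, against 377 and 966 in the control. Its ratio was carried by replicate 1, with log2 ratios of 1.01 and 0.07. MZ00013593 had 479 and 371 with nitrate, against 446 and 210 in the control, and log2 ratios of -0.05 and 0.23. MZ00041098 had 1580 and 1282, against 1626 and 940, and log2 ratios of 0.04 and -0.0088. Compared across arrays, the intensities of the sides overlapped in all 3 of these probes. Within each array the intensity was the higher with nitrate for MZ00013597 and MZ00013593, and on replicate 2 alone for MZ00041098. MZ00013593 and MZ00041098 name the same protein hit and the same 3 rice gene models as MZ00013596. MZ00015675, which shares its protein hit with MZ00006197, had 1788 and 388 with nitrate, against 1814 and 448 in the control, and log2 ratios of 0.06 and -0.50. None of these 4 passed the limma test, with adjusted p from 0.482 to 0.987 in limma.

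Probes of 1 protein hit thus covered a wide range. For BAA83567 the 4 means were 2.27, 0.88, 0.77 and -0.22, and for BAA83566 they were 2.19, 0.54, 0.09 and 0.01. The difference between probes of a hit was not tested. The median over the 9 probes was 0.73, which includes MZ00006197, chosen for its high ratio, and MZ00013594 and MZ00015674, which passed the filter only through their nitrate channel. Over the other 6 the median was 0.31, with 3 above 0 on both arrays, 0 below 0 on both and 3 mixed. Of all probes with both channels above background on both arrays, 29.3% (version A) and 29.9% (version B) were above 0 on both.

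**Figure D2:**
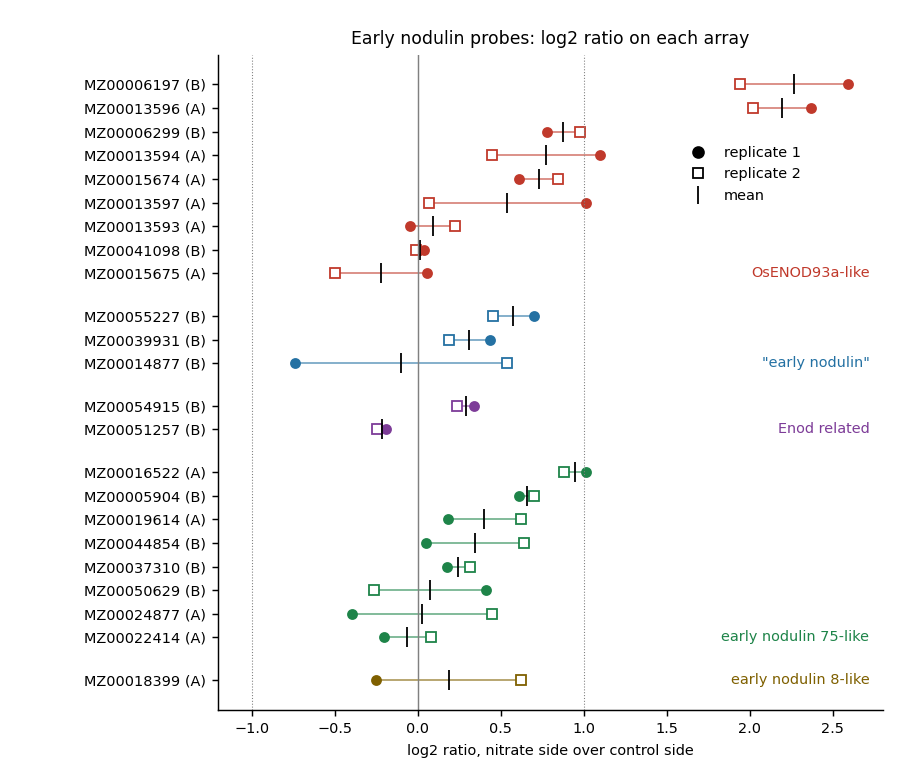
Log2 ratio of nitrate over control for the 23 tested early nodulin probes, by group, with replicate 1 (filled circle), replicate 2 (open square) and their mean (bar); letters in brackets give the array version and dotted lines mark a 2-fold difference. MZ00006197 and MZ00013596 are the 2 probes past the 2-fold line on both arrays, with means of 2.27 and 2.19.

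By the limma test 1 of the 12 tested probes on version B passed, MZ00006197, which had been chosen for it, and 0.0444% of all tested probes of that version passed. This call was lost in 5 of the 8 other ways of processing or testing both arrays, with limma or maximum-likelihood adjusted p from 0.0657 to 0.551. On version A 0 of 11 passed, where 0% of all tested probes did. Without adjustment, and without MZ00006197 and the 2 probes that passed the filter only through their nitrate channel, a limma p under 0.05 was found for 2 of 9 probes (version A) and 3 of 11 (version B). The shares were 11.6% and 12.2% of all probes with both channels above background on both arrays, and 12% and 12.9% of all tested probes. A ratio of at least 2-fold with nitrate on both arrays was found for 1 of 11 on version A, MZ00013596, and for 0.592% of all tested probes. On version B it was found for MZ00006197, which was chosen for its ratio, for none of the other 11, and for 0.59% of all tested probes. None had a ratio at least 2-fold lower on both arrays, against 0.127% of all tested probes (version A) and 0.0566% (version B). Among the OsENOD93a-like probes the count at least 2-fold higher, 2 on both arrays, became 4 on replicate 1 alone, where 2.63% (version A) and 2.75% (version B) of all tested probes were as high. It also became 4 in these settings: with median centring MZ00006299 and MZ00015674 joined the pair, and with plain intensities or with the deposited ratios MZ00006299 and MZ00013594 did. The share of all tested probes was then also larger, at 0.983% (version A) and 1.27% (version B) with median centring, 1.33% and 1.16% with plain intensities, and 1.92% and 1.27% with the deposited ratios.

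**Figure D3:**
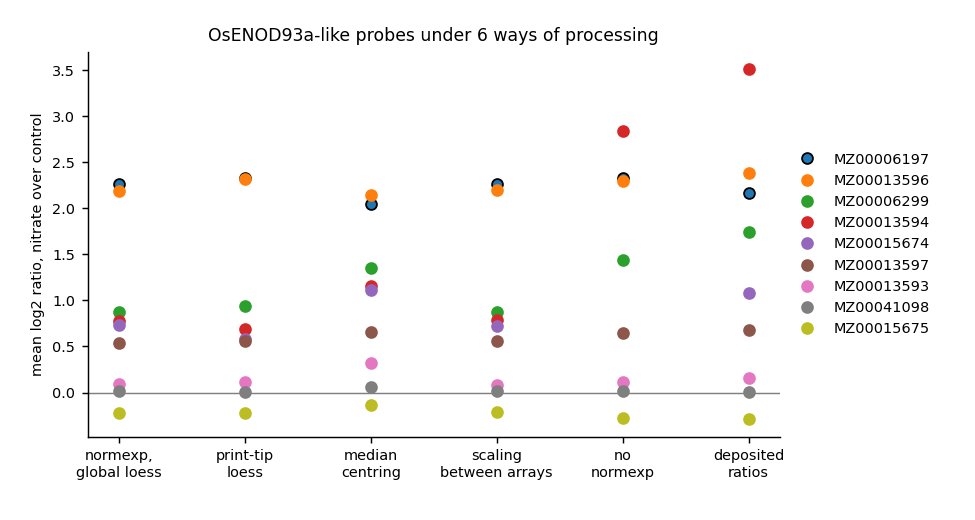
Mean log2 ratio of nitrate over control for each OsENOD93a-like probe under 6 ways of processing the 2 arrays, in order of the main ratio in the legend. MZ00006197 (outlined) stays between 2.05 and 2.34 and MZ00013596 between 2.15 and 2.38, while the dim probe MZ00013594 lies between 0.69 and 3.51; MZ00015674 has no value without normexp, where its control intensity was below 0 on replicate 2.

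Of the 4 probes described only as early nodulin, with the rice hit BAA33815, 3 were tested, with means between -0.10 and 0.58. MZ00055227 had 9552 and 13803 with nitrate, against 7602 and 9695 in the control, with 0.58 ± 0.18 on the log2 scale (SD, n = 2; limma adjusted p = 0.362). MZ00039931 had 10746 and 13431, against 10520 and 11400, with 0.31 ± 0.17, a sign that turned to -0.0191 with median centring. These 2 probes name the same rice gene model, and both were above 0 on both arrays. MZ00014877 had 1442 and 4911, against 2763 and 2833, and its log2 ratios of -0.74 and 0.54 differed in sign. MZ00039597, the probe that was not tested, had 19 and 31, against 28 and 0, all at or under the blank spots, so it gives no ratio.

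The 2 probes described as related to an early nodulin gene lay on either side of 0. MZ00054915 had 2314 and 1930 with nitrate, against 1997 and 1230 in the control, with a log2 ratio of 0.29 ± 0.08 (SD, n = 2). MZ00051257 had 632 and 551, against 593 and 438, with a log2 ratio of -0.22 ± 0.04, which turned to 0.0874 with median centring. Its intensities were the higher with nitrate on both arrays, so the ratio after loess runs the other way from the intensities. Neither passed the limma test (limma adjusted p = 0.65 and 0.735).

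Among the 8 early nodulin 75-like probes, MZ00016522 had the highest ratio. It was bright, with 52322 and 30112 with nitrate, against 34522 and 19982 in the control. Its log2 ratios of 1.02 and 0.88 were close to each other, with a mean of 0.95 ± 0.10 (SD, n = 2; limma adjusted p = 0.282). It is the only member with the protein hit BAD09004. MZ00005904 followed with 5178 and 3877, against 4112 and 1906, and a log2 ratio of 0.66 ± 0.06. Its print block had a median log2 ratio of 0.18 on replicate 1 and 0.27 on replicate 2. The ratio of MZ00005904 was 0.38 with print-tip loess and 0.37 with the deposited ratios. The remaining 6 had means between -0.06 and 0.40. MZ00050629 had 869 and 643, against 498 and 535, and log2 ratios of 0.41 and -0.26. MZ00024877 had 9472 and 6044, against 15898 and 4511, and log2 ratios of -0.39 and 0.45, so both of these probes differed in sign between the arrays. Over the 8 probes the median was 0.30, with 5 above 0 on both arrays, 0 below 0 on both and 0 past the limma test, although 2 had an unadjusted limma p under 0.05. Such a p was found for 12% (version A) and 12.9% (version B) of all tested probes. Of probes with both channels above background on both arrays, 29.3% and 29.9% were above 0 on both.

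Some early nodulin 75-like sequences were measured on both array versions. TC228720 was read by MZ00022414 on version A, with 1492 and 828 with nitrate, against 1821 and 632 in the control. On version B it was read by MZ00044854, with 3068 and 3586, against 3488 and 1826. MZ00022414 had log2 ratios of -0.20 and 0.08, and MZ00044854 had 0.05 and 0.64, so the replicate 2 arrays had the higher ratio on both. MZ00019614 and MZ00037310, from the consecutively numbered sequences TC241324 and TC241325, had 0.40 ± 0.31 and 0.24 ± 0.10 (SD, n = 2 each). The print block of MZ00019614 had medians of 0.14 and 0.29 on replicates 1 and 2. The ratio of this probe was 0.16 with print-tip loess and 0.0081 with median centring. The sign of MZ00037310 turned to -0.1448 with median centring. The single early nodulin 8-like probe MZ00018399 had 684 and 977, against 803 and 482, and log2 ratios of -0.25 and 0.62 that differed in sign.

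**Figure D4:**
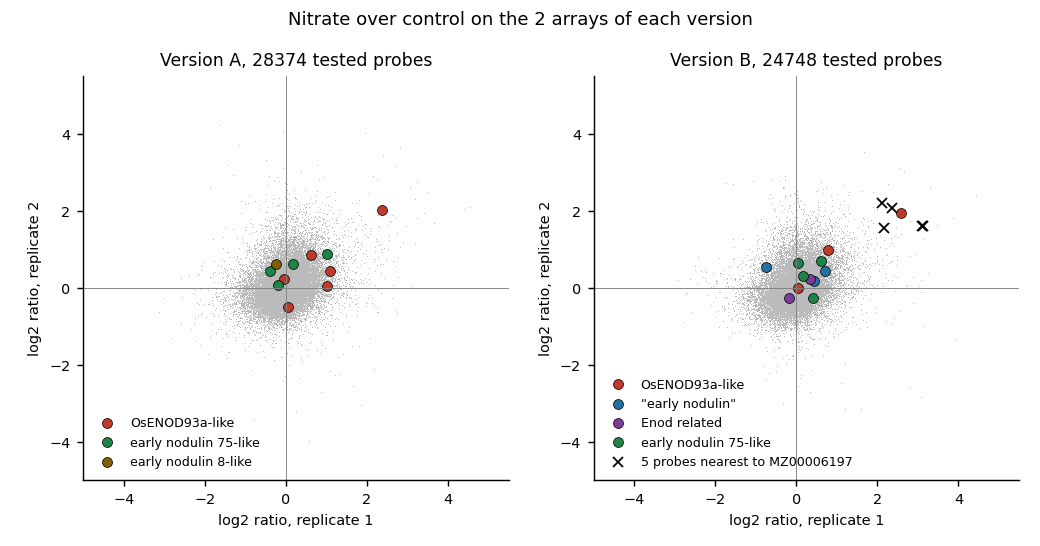
Log2 ratio of nitrate over control on replicate 1 (horizontal) and replicate 2 (vertical) for all tested probes of each version (grey points), with early nodulin probes coloured by group and the 5 probes nearest to MZ00006197 as crosses. MZ00013596 on version A and MZ00006197 on version B lie at the upper right edge of the grey cloud, and the other early nodulin probes lie within it.

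Replicate arrays correlated weakly across probes, with Pearson's r of 0.29 on version A and 0.27 on version B, as a description over probes that share arrays. The median probe differed between its 2 arrays by 0.35 on the log2 scale on version A and 0.34 on version B.

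The probes with a description that lay nearest to MZ00006197 in the plane of its 2 log2 ratios were taken from version B, over 2 arrays. The nearest, at a distance of 0.26 on the log2 scale, was the C2H2 zinc finger protein ZFP16 (MZ00046786), a putative transcription factor, with 2.37 and 2.09. The tonoplast aquaporin MZ00040544, a vacuolar water channel, lay at 0.54 with 2.12 and 2.20. Alcohol dehydrogenase I (MZ00038565), the last enzyme of ethanol fermentation, lay at 0.57 with 2.16 and 1.56. A pair of putative monodehydroascorbate reductase probes, MZ00041789 and MZ00041790, for an enzyme that regenerates ascorbate, lay at 0.61 and 0.64 with 3.10 and 1.61 and with 3.13 and 1.61. This likeness rests on 2 values per probe.

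Other lists of probes were set beside the early nodulins on the same ratio. Of all tested probes, 0% (version A) and 0.0444% (version B) passed the limma test. A ratio of at least 2-fold with nitrate on each array was found for 0.592% and 0.59% of them. An unadjusted limma p under 0.05 was found for 12% and 12.9%. The nitrate reduction list, of nitrate reductase, nitrite reductase and uroporphyrin-III C-methyltransferase, had a median of 1.05 over 15 tested probes, of which 2 passed the limma test and 7 reached 2-fold with nitrate on each array. Its members differed. Nitrite reductase MZ00016104 had a mean of 2.94, and methyltransferase probes ranged from -0.49 (MZ00007317) to 2.93 (MZ00016805). Among the lowest members were the nitrate reductase probes MZ00034133, MZ00035929 and MZ00050877, with means of 0.55, 0.05 and -0.32. The OsENOD93a-like median was 0.73, or 0.31 without the 3 probes named above, and the 14 other tested early nodulin probes had a median of 0.27. The 51 tested probes of other nodulins had a median of 0.05, with 2 that reached 2-fold with nitrate on each array and 0 past the limma test, while 8 had an unadjusted limma p under 0.05. Both of those 2 were described as nodulin-related protein-like. MZ00047038 had 2.06 and 1.34 (limma adjusted p = 0.0679) and MZ00000840 had 2.20 and 1.05 (limma adjusted p = 0.241). The lowest of these nodulins was MZ00006965 with -0.69 and -1.08.

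Phytocyanins are small copper-binding proteins of the cell surface, a family that early nodulin-like proteins belong to. The 29 tested phytocyanin probes had a median of -0.13, with 0 past the limma test and 5 at an unadjusted limma p under 0.05. Of all tested probes, 12% (version A) and 12.9% (version B) had such a p. A ratio of at least 2-fold with nitrate on each array was found for 0.592% and 0.59% of them. The blue copper-binding protein homolog MZ00033361, with 1.60 and 1.32, reached 2-fold with nitrate on each array. The cytochrome c oxidase list, whose descriptions name the complex, its subunits or its assembly proteins, had a median of 0.06 over 33 tested probes, and 0 were at least 2-fold different on both arrays or past the limma test, while 3 had an unadjusted limma p under 0.05. The highest mean was that of MZ00034803, for subunit 3, with 0.14 and 1.30. The lowest was that of MZ00042731, described as similar to an assembly protein, with -0.83 and -0.78.

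**Figure D5:**
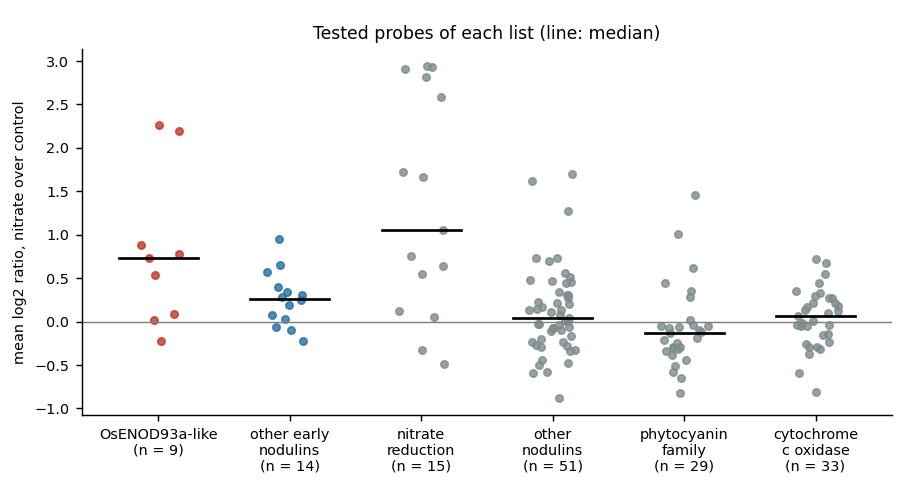
Mean log2 ratio of nitrate over control for each tested probe of 6 groups, with the median as a line; horizontal scatter is only for visibility. The OsENOD93a-like probes have a median of 0.73 with 2 probes above 2, against 0.27 for the other early nodulins and 1.05 for nitrate reduction. The 0.73 includes MZ00006197, chosen for its high ratio, and 2 probes that passed the filter only through their nitrate channel. Without these probes the median was 0.31 over the other 6.

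Root cap markers had a higher median ratio on replicate 1 than on replicate 2 of both versions. All 14 root cap probes, for the cells that cover the root tip, were above background. Their median log2 ratio was 0.95 on replicate 1 and 0.08 on replicate 2 of version A. On version B it was 0.49 and 0.11. The highest single value was 2.43, for MZ00013008 on replicate 1 of version A, where replicate 2 had 0.23. On version B, MZ00048981 was at least 2-fold higher on both arrays, with 1.18 and 1.01. MZ00030626 had 2.00 and 0.04, and MZ00050555 had 0.75 and 0.69. Other root cap probes went the other way. MZ00017555 on version A was below 0 on both arrays, with -0.31 and -0.15. MZ00010344 (0.95 and -0.49) on version A differed in sign between the arrays, as did MZ00049570 (0.25 and -0.55) and MZ00012906 (0.32 and -0.01) on version B. Summed root cap intensities were 103590 and 97940 on the nitrate side, against 89208 and 115609 on the control side, on version A. On version B they were 249670 and 226937, against 210814 and 217804. Among the OsENOD93a-like probes, MZ00006197, MZ00013596, MZ00013597, MZ00041098, MZ00013594 and MZ00015675 had the higher ratio on replicate 1. MZ00006299, MZ00015674 and MZ00013593 had the higher ratio on replicate 2. The part of root tip cells in the early nodulin ratios was not tested. The wider root list of 32 probes had a median of 0.24. The leaf list of 129 tested probes had 0.03 and the seed list of 223 had 0.03, and no maize probe was described as leghemoglobin, the oxygen carrier of legume nodules.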

How the data were processed

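Spotted oligonucleotide arrays gave, per the file headers, a Cy5 (control) and a Cy3 (nitrate) intensity for each of 32448 spots. The deposited intensity of a spot is a whole number on a linear scale, sometimes below 0, so the authors had subtracted a background. How is not given in the sources used here. Ratios the authors deposited set nitrate over control, unlogged, with a median of 0.996 to 1.01 per array. The value table of the series equalled this ratio within 0.0001 on 100% of spots.

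Normexp (offset 50) and then a global loess per array, in limma 3.58.1 under R 4.3.3, turned the intensities into log2 ratios. Control spots and spots flagged B (4 to 10 per array) had weight 0. Spots that exceeded the 95th percentile of blank spots in at least 1 channel on both arrays were averaged per probe, leaving 28374 probes for version A and 24748 for version B. The mean ratio of each was tested against 0 with lmFit and eBayes on 2 arrays (1 residual degree of freedom), with Benjamini-Hochberg adjustment over the version and a threshold of 0.05. The fit was tested on simulated data, where the changed probes were mostly recovered but the share of false calls was above the threshold with this prior and below it with the maximum-likelihood prior. Precision is limited by the 2 arrays per version. Probe sequences were not used here.

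The members and lists were chosen with earlier results of these data known. Every early nodulin probe is named. The 5 nearest probes are those with a description naming a protein and the smallest Euclidean distance to MZ00006197. Of each list other than the root cap subset, at most the 2 highest and 2 lowest probes of a version are named. The root cap subset was formed after seeing the root list, and its named probes include every one below 0 on an array. The alternatives were print-tip loess, median centring, plain intensities, scaling between arrays, deposited ratios, no filter, other priors and each replicate alone.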

Additional observations from a re-analysis of the deposited data

How the results depend on the processing

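The log2 ratio of MZ00006197 was 2.33 with print-tip loess, 2.34 with plain intensities, 2.27 with scaling between arrays, 2.17 with the deposited ratios and 2.27 with a maximum-likelihood prior, and in these 5 settings its limma call was lost, with adjusted p of 0.077, 0.392, 0.0657, 0.551 and 0.308 (limma, or the same moderated test with that prior). The cause was not tested. The ratio of MZ00006197 ranged from 1.94 to 2.59 on each replicate alone. The probe kept its call with median centring, with no filter and with a trended robust prior (limma adjusted p from 0.00265 to 0.0488). MZ00006197 was chosen because it passed the limma test on these same arrays, so a kept call is no independent evidence. The number of probes called on version B, 11 in all, became 3 with print-tip loess, 19 with median centring, 4 with scaling, 71 with a trended robust prior, and 0 with plain intensities, deposited ratios or the maximum-likelihood prior. On version A, with 0 called, it became 8 with print-tip loess, 2 with scaling and 4 with a trended robust prior. Probes at least 2-fold higher on both arrays, 168 on version A and 146 on version B, became 279 and 314 with median centring, 372 and 286 with plain intensities, and 546 and 314 with deposited ratios. On each replicate alone, where only 1 array has to pass, there were 746 to 1379 on version A and 681 to 1104 on version B. The count of OsENOD93a-like probes at least 2-fold higher, 2, became 4 with median centring, plain intensities or deposited ratios, and ranged from 2 to 4 on each replicate alone. Of the 23 tested early nodulin probes, 18 kept their sign in all settings that used both arrays. The sign of 4 turned with median centring, to -0.0191 for MZ00039931, 0.0874 for MZ00051257, -0.2092 for MZ00024877 and -0.1448 for MZ00037310, and that of MZ00014877 turned to 0.0085 with deposited ratios. No member other than MZ00006197 passed the limma test in any setting. No paired analysis was possible because each array already sets both sides of the root against each other and the versions hold different probes. A single array has no residual degrees of freedom, so it gives values with no test.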
